A study of Mus musculus with 10 samples.

Results

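The 38 genes described here encode the parts of the contractile apparatus and of the calcium store that drives it: 10 of the thick filament and M-band, 9 of the thin filament, 8 of the Z-disc and the intermediate filaments anchored there, 3 that assemble or protect these proteins, 4 of calcium handling and 4 of smooth muscle. They were listed by name, and each was found by its Ensembl identifier among the 38924 gene rows counted in 10 sorted samples. Mouse embryonic stem cells with a truncated human CD4 made from the Foxa2 locus were differentiated as embryoid bodies and sorted at day 5, so that an antibody to CD4 reads Foxa2 expression. Cardiac cultures, given VEGF, Activin A and BMP4, yielded cardiac mesoderm positive for Kdr and Pdgfra, which was divided into Foxa2+ CM (CD4 positive, 3 samples) and Foxa2- CM (CD4 negative, 3 samples). The same kind of culture yielded Flk1+ high cells (Kdr high haematopoietic mesoderm, 2 samples), and cultures given Activin A at a higher dose yielded CD4 positive Endoderm (2 samples). All 4 groups therefore carry the reporter allele, and all come from 1 stem cell line grown in vitro. The labels do not say that replicates came from separate cultures, so p-values measure only the spread between these samples. In sorted bulk samples, fewer cells expressing a gene and less RNA per cell cannot be told apart.

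In striated muscle, myosin thick filaments pull on thin filaments of actin, tropomyosin and the troponin complex. Thin filaments are anchored at the Z-disc by alpha-actinin, and titin runs from the Z-disc to the M-band at the centre of the sarcomere. Calcium released from the sarcoplasmic reticulum through the ryanodine receptor binds troponin C and permits the pull, and the SERCA pump returns the calcium to the store. Smooth muscle lacks troponin and uses its own actin, myosin and calponin. Embryonic cells switch on several of these genes, including smooth muscle and skeletal muscle actins, before the heart beats, and some isoforms are later exchanged for others.

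Counts on genes ran from 10926284 to 17470126 per sample, so that 3 counts, taken as the smallest detectable signal, stood at 0.172 to 0.275 CPM (counts scaled to a common TMM-normalized library size), a floor for counting error only. The sort was visible in Foxa2, at 3.49 to 20.0 CPM in Foxa2+ CM and 0.872 to 2.54 in Foxa2- CM, with the lowest Foxa2+ value in replicate 3. Summed levels of the cardiac mesoderm, haemato-endothelial and endoderm marker lists were highest in the groups with those labels. The cardiac mesoderm list holds Kdr and Pdgfra and the endoderm list Foxa2, which the sort reads, so these sums do not check the labels independently. The 8 cardiac mesoderm markers reached 1049 to 1222 CPM in Foxa2+ CM and 1289 to 1429 in Foxa2- CM. They summed to 744 and 941 CPM in Flk1+ high cells, and to 131 to 219 in Endoderm. In Flk1+ high cells, 554 and 592 CPM of this were Kdr, which those cells were sorted on, against 353 to 440 in CM. Of the 8 markers, 4 were higher in CM than in Flk1+ high cells and 1, Kdr, was lower (edgeR, adjusted p under 0.05). The 9 haemato-endothelial markers reached 1237 to 1561 CPM in Flk1+ high cells, 401 to 501 in Foxa2+ CM, 289 to 508 in Foxa2- CM and 47.5 to 93.6 in Endoderm. The 7 endoderm markers reached 834 to 1004 CPM in Endoderm, 167 to 190 in every CM sample and 175 to 189 in Flk1+ high cells. Endoderm was also highest in 4 pluripotency markers, at 367 to 372 CPM against 44.8 to 118 in CM and 26.0 to 46.4 in Flk1+ high cells. The 4 skeletal myogenic factors summed to at most 1.59 CPM in any sample. Replicate 3 of each CM group carried the most haemato-endothelial signal of its group, 501 CPM in Foxa2+ CM and 508 in Foxa2- CM. Single markers did not all follow: Etv2 was lowest in replicate 3 of both groups (97.5 and 91.0 CPM), and Lmo2 in that of Foxa2+ CM (87.9 CPM). The fibroblast list was highest in replicate 3 as well. In order of replicate it summed to 44.3, 61.1 and 132 CPM in Foxa2+ CM and 95.9, 126 and 301 in Foxa2- CM.

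Most of the contractile genes had few counts at this stage, but Atp2a2 (293 to 368 CPM) and Tpm1 (183 to 296 CPM) did not. Together the 38 genes, of 38924 gene rows, held 0.0675% to 0.0819% of all gene counts. Atp2a2 and Tpm1 alone took 71.1% to 81.5% of that. No member was at 0 in all samples. At least 3 counts in every sample of the group were found for 28 members in Foxa2+ CM, 28 in Foxa2- CM, 27 in Endoderm and 33 in Flk1+ high cells. This held for 24 members in all 4 groups and for 34 in at least 1. The 4 that reached it in no group were Lmod2, a thin filament nucleator, Csrp3, a Z-disc LIM protein, and the actin-binding repeat proteins Xirp1 and Xirp2, none of which exceeded 5 counts in any sample.

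**Figure D1:**
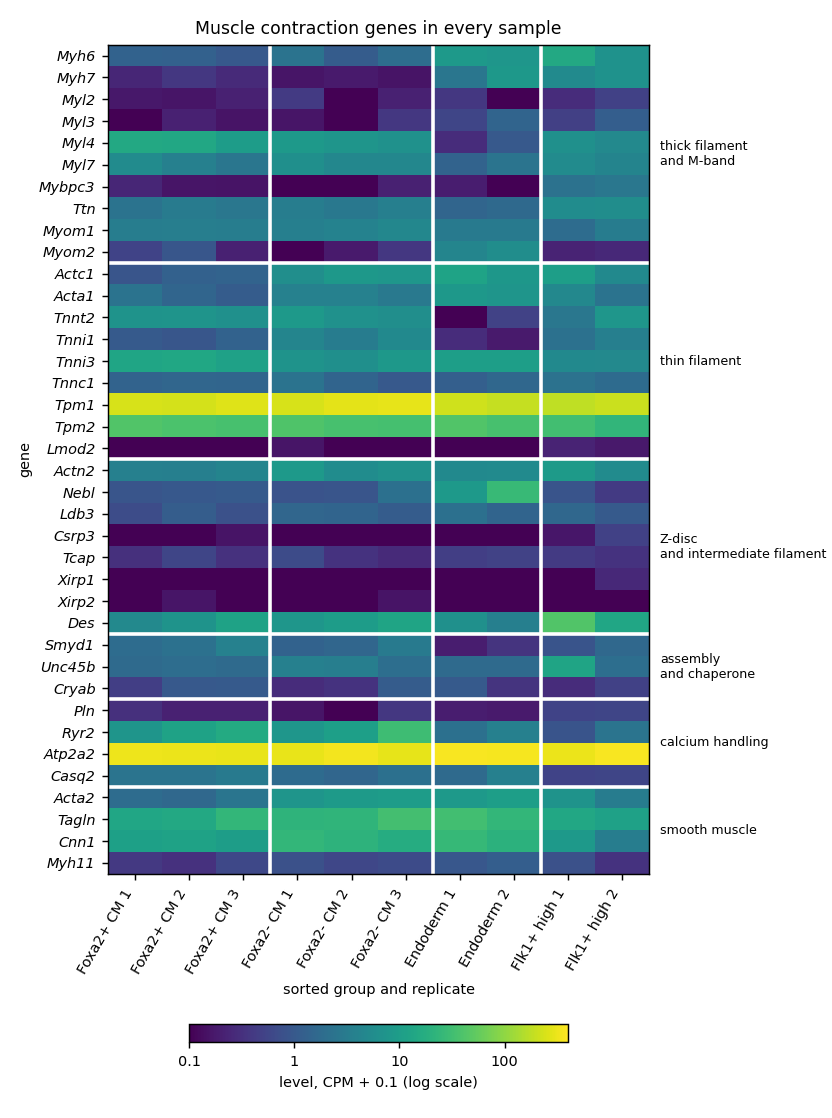
Level of each of the 38 genes (rows, grouped by role) in each of the 10 samples (columns), as CPM plus 0.1 on a log colour scale. Atp2a2 and Tpm1 are bright in every column, Lmod2, Csrp3, Xirp1 and Xirp2 are dark in nearly all, and the columns differ widely in Myh7, Myl4, Mybpc3, Myom2, Nebl and Tnnt2.

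Per kilobase of exon, the highest members were the same few in every group. Atp2a2, the SERCA2 pump that most cells use to fill their calcium store, stood first in each. Its length-scaled level in RPKM (CPM divided by the exon length in kilobases) was 52.0 ± 1.85 (SD, n = 3) in Foxa2+ CM, 51.9 ± 4.64 (SD, n = 3) in Foxa2- CM, 59.7 ± 0.547 (SD, n = 2) in Endoderm and 56.0 ± 6.30 (SD, n = 2) in Flk1+ high cells. By sample it ran 54.0, 51.9 and 50.3 in Foxa2+ CM and 50.4, 57.1 and 48.2 in Foxa2- CM, then 60.1 and 59.3 in Endoderm and 51.6 and 60.5 in Flk1+ high cells. The groups overlapped, apart from Endoderm against CM, and no comparison called Atp2a2.

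Tpm1, an alpha-tropomyosin used by both muscle and other cells, was second in each group. Its length-scaled level was 37.9, 36.1 and 41.3 RPKM in Foxa2+ CM and 37.7, 43.2 and 45.6 in Foxa2- CM, against 34.3 and 29.8 in Endoderm and 28.2 and 31.4 in Flk1+ high cells. Every CM sample was above every other sample. The third place went to Tpm2, a beta-tropomyosin, in Foxa2+ CM and Flk1+ high cells, and to Tagln, the smooth muscle protein transgelin, in Foxa2- CM and Endoderm. Tpm2 stood at 14.3, 13.3 and 12.2 RPKM in Foxa2+ CM, 13.9, 12.3 and 12 in Foxa2- CM, 14.3 and 12.3 in Endoderm, and 11.2 and 8.01 in Flk1+ high cells, its lowest values. Tagln stood at 6.80, 7.44 and 12.2 RPKM in Foxa2+ CM, 11, 11.2 and 16.7 in Foxa2- CM, 16.2 and 12.2 in Endoderm, and 7.28 and 5.66 in Flk1+ high cells. In 3 of the groups Tpm2 and Tagln, which neighbour each other in order, overlapped in their ranges. An antisense gene, Gm48529, covers 62.4% of the exonic bases of Tagln, and the libraries do not mark strand, so part of its counts could belong to that gene. Tpm1 and Atp2a2 reached 0.810 and 0.897 counts per exonic base after the authors removed duplicate reads, a step that can hold down the counts of abundant transcripts.

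Between the cardiac mesoderm groups, several genes of the muscle actin filament were lower in Foxa2+ CM. Cardiac alpha-actin (Actc1), smooth muscle alpha-actin (Acta2), slow skeletal troponin I (Tnni1), calponin (Cnn1) and sarcomeric alpha-actinin (Actn2) were lower, by 1.83 to 6.55-fold, and cardiac troponin I (Tnni3) was 1.79-fold higher. Of 26 members that passed the filter on low counts, 1 (3.85%) was higher and 5 (19.2%) were lower at an adjusted p under 0.05 (the quasi-likelihood F test of edgeR, CM samples alone, with Benjamini-Hochberg adjustment over all 15284 genes tested). Over all genes tested, 3.81% were higher and 2.66% were lower. The median log2 fold change was -0.39 over the 26 members and -0.0014 over all genes tested. The filter kept out 12 members with few counts in these cells: Myh7, Myl2, Myl3, Mybpc3, Myom2, Lmod2, Csrp3, Tcap, Xirp1, Xirp2, Pln and Myh11.

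**Figure D2:**
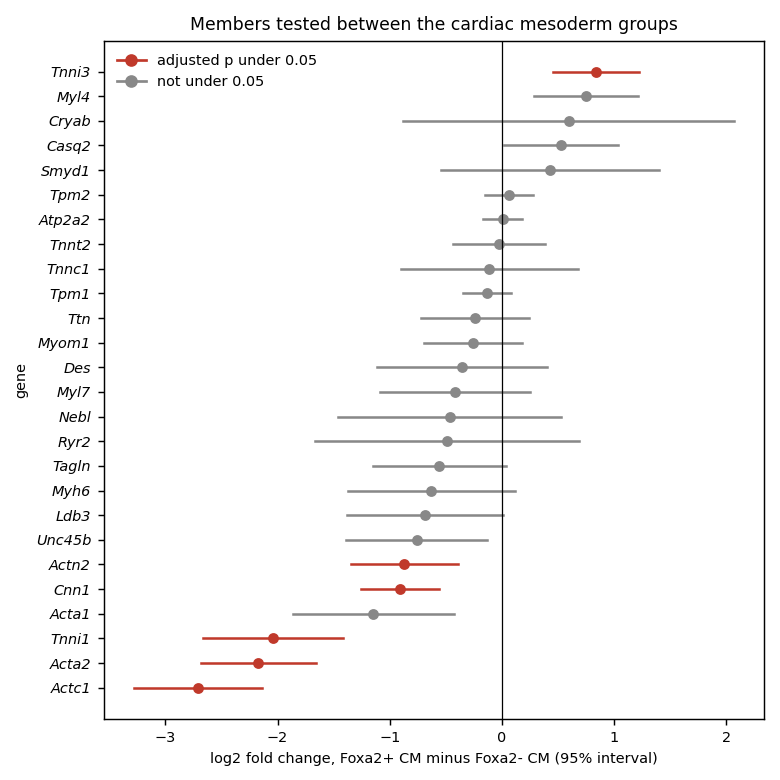
Log2 fold change (horizontal axis, Foxa2+ CM minus Foxa2- CM) of the 26 members tested, with 95% intervals from edgeR, in order of size. Actc1, at -2.71, lies lowest and Tnni3, at 0.84, highest, and red marks the 6 members with an adjusted p under 0.05.

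Actc1 (chromosome 2, 114047282 to 114053548 of mm10, minus strand), the main actin of the heart's thin filament, had the largest difference. It was at 0.803, 1.21 and 1.30 CPM in Foxa2+ CM and at 6.0, 8.33 and 7.78 CPM in Foxa2- CM. All Foxa2+ samples were below all Foxa2- samples, with a log2 fold change of -2.71 (95% interval -3.28 to -2.14, adjusted p = 0.00198 from edgeR). The counts behind these levels were 11, 21 and 23 against 97, 105 and 138. Endoderm (12.4 and 7.94 CPM) and Flk1+ high cells (10.2 and 5.04 CPM) were also above Foxa2+ CM.

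Acta2 (chromosome 19, 34241090 to 34255590, minus strand), the actin of smooth muscle, showed the same order. It was at 1.75, 1.56 and 2.42 CPM in Foxa2+ CM and at 7.48, 8.96 and 9.58 CPM in Foxa2- CM, without overlap, a log2 fold change of -2.17 (95% interval -2.69 to -1.66, adjusted p = 0.00305 from edgeR). Foxa2+ CM was the lowest group here too, below Endoderm (8.56 and 10.2 CPM) and Flk1+ high cells (7.08 and 3.15 CPM). Acta1 (chromosome 8, 123891769 to 123894751, minus strand), the actin of skeletal muscle, was at 2.26, 1.39 and 1.01 CPM in Foxa2+ CM and at 3.77, 3.73 and 2.76 CPM in Foxa2- CM. Its groups did not overlap, but its log2 fold change of -1.15 (95% interval -1.87 to -0.43) had an adjusted p of 0.0755 in the same edgeR test. Endoderm held the most Acta1, at 8.10 and 7.52 CPM, and Flk1+ high cells were at 4.64 and 2.28 CPM. The muscle actins have nearly the same protein but share few stretches as long as a read of 50 nt: 2.02% of the 50-base windows in Acta1 transcripts, 0.326% in Acta2 and 0% in Actc1 also occur in another gene.

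Because these actin genes are known targets of serum response factor, which binds CArG boxes, the 120 bases before the RefSeq transcription start of each are shown (GRCm38.p6, minus strand, 5′ to 3′, whole CArG boxes in capitals), at chr2:114052876-114052995 for Actc1, chr8:123894776-123894895 for Acta1 and chr19:34255374-34255493 for Acta2.
Actc1: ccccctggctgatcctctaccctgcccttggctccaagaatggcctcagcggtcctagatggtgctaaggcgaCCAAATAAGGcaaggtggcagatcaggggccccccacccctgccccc
Acta1: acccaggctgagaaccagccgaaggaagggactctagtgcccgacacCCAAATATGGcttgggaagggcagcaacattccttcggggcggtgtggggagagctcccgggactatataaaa
Acta2: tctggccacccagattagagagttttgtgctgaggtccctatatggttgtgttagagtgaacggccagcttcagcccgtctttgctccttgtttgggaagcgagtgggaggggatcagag
Only exact boxes (CC, then A or T bases alone, then GG) were searched for, and near matches were not counted. Actc1 holds CCAAATAAGG with its first base 47 bases before the start, and Acta1 holds CCAAATATGG 73 bases before it. Acta2 has no exact box in its window, which does hold the near matches ccctatatgg and ccttgtttgg, with a C or G in the middle. In promoters of 300 bases (250 before to 50 after the start), scanned on both strands, 7 of the 31 members with an entry in the RefSeq table (22.6%) held a CArG box, against 488 of 27025 genes (1.81%). The others were Myl7 (CCTTATTTGG), Myl3 (CCTTTTATGG), Myom1 (CCATAAAAGG), Ldb3 (CCATTTATGG) and Nebl (CCTAAATTGG). No box was found in these windows of Tnni1, Tnni3, Cnn1 and Actn2. Myom2, Cryab, Xirp1, Atp2a2, Tagln, Myh11 and Tcap had no entry. These matches are descriptions of sequence, and binding was not measured.

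The troponin I genes moved in opposite directions. Tnni1 (chromosome 1, 135779434 to 135810989, plus strand), the slow skeletal form that the embryonic heart also makes, was at 0.949, 0.809 and 1.24 CPM in Foxa2+ CM and at 4.27, 3.17 and 4.96 CPM in Foxa2- CM. The groups did not overlap, and the log2 fold change was -2.04 (95% interval -2.67 to -1.42, adjusted p = 0.00627 from edgeR). Tnni3 (chromosome 7, 4518305 to 4524229, minus strand), the cardiac form that replaces it in the mature heart, was at 12.9, 14.0 and 11.6 CPM in Foxa2+ CM and at 6.99, 6.19 and 8.29 CPM in Foxa2- CM, and was higher by 0.84 on the log2 scale (95% interval 0.46 to 1.22, adjusted p = 0.0253 from edgeR). Of the counts on both troponin I genes, Tnni3 took 93.1%, 94.6% and 90.3% in Foxa2+ CM and 62.1%, 66.1% and 62.6% in Foxa2- CM. The share was 98.2% and 99.2% in Endoderm and 70.4% and 58.1% in Flk1+ high cells, so that Foxa2+ CM lay between Endoderm and the remaining groups. Tnni3 shares 86 exonic bases (4.17%) with Dnaaf3 on the same strand.

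Cnn1 (chromosome 9, 22099216 to 22109630, plus strand), smooth muscle calponin, was at 10.9, 11.7 and 10.1 CPM in Foxa2+ CM and at 23.8, 21 and 16.7 CPM in Foxa2- CM, without overlap (difference of -0.91 on the log2 scale, 95% interval -1.26 to -0.56, adjusted p = 0.0137 from edgeR). It was highest in Endoderm (25.8 and 20.5 CPM) together with Foxa2- CM, and lowest in Flk1+ high cells (8.77 and 3.30 CPM). Actn2 (chromosome 13, 12269426 to 12340760, minus strand), the alpha-actinin that crosslinks actin at the Z-disc, was at 3.65, 3.47 and 4.11 CPM in Foxa2+ CM and at 8.53, 5.47 and 6.54 CPM in Foxa2- CM, without overlap (difference of -0.87 on the log2 scale, 95% interval -1.35 to -0.39, adjusted p = 0.0478 from edgeR). Endoderm (5.03 and 5.18 CPM) and Flk1+ high cells (9.02 and 5.35 CPM) lay above Foxa2+ CM in Actn2 as well.

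**Figure D3:**
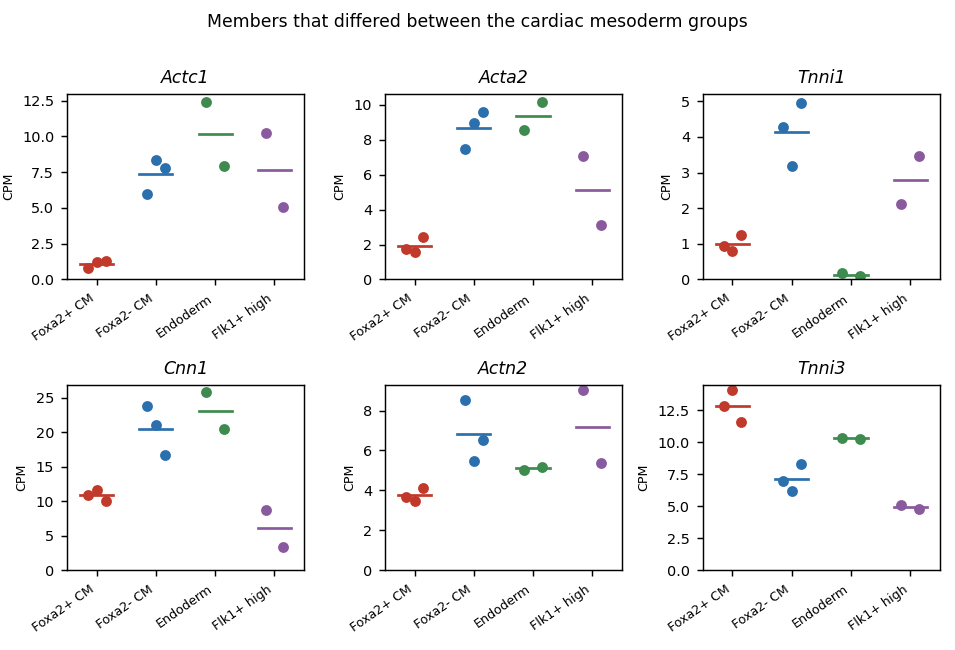
CPM (vertical axis, linear from 0) of the 6 members that differed between the CM groups, 1 panel each, with a point per sample and a line at the group mean (n = 3, 3, 2 and 2). In Actc1, Acta2, Cnn1 and Actn2 the Foxa2+ CM points lie below those of Foxa2- CM and Endoderm, and only in Tnni3 do they lie above all others.

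Actc1, Acta2 and Tnni1 stayed called under every alternative run, with each sample left out in turn. The calls of Tnni3, Cnn1 and Actn2 were lost without replicate 1 or 2 of either CM group. Those fits gave adjusted p values from edgeR of 0.0845 to 0.132 for Tnni3, 0.0513 to 0.0745 for Cnn1 and 0.0720 to 0.194 for Actn2, with the same direction. Each such fit called 3 members, and 234 to 414 of all genes in place of 990. Without Foxa2+ CM replicate 3, Actn2 was at an adjusted p of 0.0729 (edgeR) and 6 members were called. Both replicates numbered 3 carried the most haemato-endothelial and fibroblast signal of their groups. Without them, 10 members were called, 2 higher and 8 lower, and 2632 of all 15093 genes tested in place of 990 of 15284.

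The other sarcomere and calcium genes tested did not pass the threshold, and their intervals show what the test leaves possible. Tnnt2, cardiac troponin T, one of the 2 members whose protein the study stained in later cultures, was at 7.08, 7.23 and 6.25 CPM in Foxa2+ CM and at 8.47, 6.58 and 5.92 CPM in Foxa2- CM, and the interval of its difference ran from -0.44 to 0.39 on the log2 scale. Myl2, the ventricular myosin light chain and the other stained protein, had 1, 1 and 2 counts in Foxa2+ CM, 5, 0 and 2 in Foxa2- CM, 3 and 0 in Endoderm, and 3 and 5 in Flk1+ high cells, at or near the floor throughout. Among the atrial light chains, Myl4 was at 14.6, 14.3 and 9.75 CPM in Foxa2+ CM and 8.84, 7.53 and 6.60 in Foxa2- CM, with no overlap and an adjusted p of 0.0715 (edgeR, log2 fold change 0.75), and Myl7 overlapped (adjusted p = 0.54, edgeR). The giant spring protein Ttn, the M-band protein Myom1, troponin C (Tnnc1) and Tpm1, Tpm2 and Atp2a2 had log2 fold changes between -0.26 and 0.06. The calcium release channel Ryr2 was at 7.52, 11.8 and 15.8 CPM in Foxa2+ CM and 7.67, 10.8 and 30.7 in Foxa2- CM, highest in replicate 3 of each group. Smyd1, a methyltransferase needed for sarcomere assembly, and Des, the intermediate filament desmin, were also highest in replicate 3 of each CM group, at 3.78 and 2.99 CPM for Smyd1 and 11.7 and 12.7 CPM for Des. The part of the haemato-endothelial or fibroblast signal of these samples in those levels was not tested.

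Genes that surround the contractile set were counted by list. Of 14 regulators of the muscle programme tested, 3 were higher and 1 was lower in Foxa2+ CM. Myocd, the smooth and cardiac muscle coactivator of serum response factor, was at 12.3, 16.1 and 16.5 CPM in Foxa2+ CM and 4.51, 5.23 and 6.26 in Foxa2- CM (1.49 on the log2 scale, adjusted p = 0.00573 from edgeR). It therefore went the opposite way to Actc1, Acta2 and Cnn1, while Srf itself was at 144 to 159 CPM in Foxa2+ CM and 141 to 163 in Foxa2- CM (0.015 on the log2 scale, adjusted p = 0.955 from edgeR). Nkx2-5 (log2 fold change 1.11) and Tbx5 (1.76), both cardiac transcription factors, were higher, and Hand1 (-1.04) was lower. Of 21 non-muscle and broadly used paralogs, such as Actb, Myh9 and Actn4, none passed the test, with a median log2 fold change of -0.05. Of 8 skeletal paralogs tested, Atp2a1 was higher (1.04), of 4 other smooth muscle genes, Kcnmb1 (1.68), and of 15 other calcium genes, Itpr3 (0.41). Among the marker lists, Isl1 (-2.69), Mesp1 (-3.10) and Hand1 were lower and Nkx2-5 was higher of 8 cardiac mesoderm markers. Foxa2 (3.18), whose difference follows from the sort, and Sox17 (2.09) were higher of 7 endoderm markers, with a median of -0.07. Lmo2 (0.79) was higher of 9 haemato-endothelial markers, and Nanog (-2.41) and Sox2 (-0.89) were lower of 4 pluripotency markers. Tubb3 (-1.03) was lower as the 1 neural marker tested, and neither of the 2 fibroblast markers tested passed. None of the 4 skeletal myogenic factors had enough counts to be tested.

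Against Endoderm, cardiac mesoderm held more Tnnt2, Tnni1 and atrial light chains (Myl4 and Myl7) and less Myh6, Myh7, Myom2, Nebl and Myl3. The troponins Tnni3 and Tnnc1 did not pass the test. For Tnni3 the test averages CM groups on opposite sides of Endoderm (10.3 CPM in both samples). Foxa2+ CM was above it (11.6 to 14.0 CPM) and Foxa2- CM below it (6.19 to 8.29 CPM). Of 31 members tested, 8 (25.8%) were higher in CM and 8 (25.8%) were lower, against 17.3% and 20.0% of the 16180 genes tested (edgeR, the mean of both CM groups minus Endoderm, 1 model of all 10 samples, which also supplied the remaining comparisons and shares samples among them). Higher were Tnnt2, Myl4, Tnni1, Smyd1, Ryr2, Myl7, Ttn and Tpm1, with log2 fold changes from 4.93 down to 0.33. Lower were Myh7, Myom2, Nebl, Myl3, Myh6, Actc1, Acta1 and Acta2, from -5.44 to -1.20. The median log2 fold change of the members was -0.03, and -0.0057 over all genes tested. Of the 31, Myh7, Myl3, Mybpc3, Myom2 and Myh11 did not pass the filter in the CM samples alone and entered through the groups where they were higher, so that the share of members lower in CM, here and against Flk1+ high cells, is partly set by the filter. Leaving out Endoderm replicate 1 ended the calls of Myl7, Smyd1 and Ttn (adjusted p = 0.174, 0.0518 and 0.0884, edgeR), and leaving out replicate 2 those of Tpm1, Acta2 and Ttn (adjusted p = 0.198, 0.0819 and 0.0514, edgeR). For Actc1 and Acta2 this contrast averages CM groups that differ, and the Foxa2- CM samples overlapped with Endoderm in both.

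Tnnt2 was at 0 and 5 counts in Endoderm (0 and 0.418 CPM) and at 83 to 137 counts in each CM sample. All CM samples were above both Endoderm samples, with a log2 fold change of 4.93 (95% interval 3.27 to 6.59, adjusted p = 0.000746 from edgeR). This size rests on the few counts of 1 sample: without Endoderm replicate 2, which held all 5, the fitted value was 9.70, and without replicate 1 it was 4.05. Flk1+ high cells differed from each other in Tnnt2, at 2.57 and 7.79 CPM, and reached the CM level in replicate 2.

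Myl4 was at 0.186 and 0.919 CPM in Endoderm, below every CM sample (log2 fold change 4.11, 95% interval 3.08 to 5.14, adjusted p = 0.000127 from edgeR), with fitted values of 3.45 without Endoderm replicate 1 and 5.69 without replicate 2. Flk1+ high cells, at 6.33 and 4.88 CPM, were below all CM samples but did not differ past the threshold (adjusted p = 0.0925, edgeR). Tnni1 had only 2 and 1 counts in Endoderm. The ratio of pooled levels (summed counts over summed library sizes), CM to Endoderm, was 19.6 (95% interval 6.61 to 95.5 for counting error, exact binomial). It pools CM groups that differ in Tnni1.

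The striated muscle heavy chains Myh6 and Myh7 were lowest in cardiac mesoderm. Myh7 (chromosome 14, 54970684 to 54994626, minus strand), the slow heavy chain that dominates the fetal ventricle, had 2, 5 and 3 counts in Foxa2+ CM and 1 in each Foxa2- CM sample. It had 27 and 99 counts in Endoderm (2.51 and 8.27 CPM) and 84 and 86 in Flk1+ high cells (5.26 and 6.77 CPM). The log2 fold change was -5.44 (95% interval -6.49 to -4.39, adjusted p = 2.69e-05) against Endoderm, or -4.32 without Endoderm replicate 2, and -5.59 (95% interval -6.62 to -4.56, adjusted p = 7.74e-05) against Flk1+ high cells, both from edgeR. Both groups outside CM were above all CM samples, and they did not differ from each other past the threshold (log2 fold change -0.15, interval -1.17 to 0.88).

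Myh6 (chromosome 14, 54941921 to 54966927, minus strand), the fast heavy chain of the atrium and its neighbour on the chromosome, was also lowest in the CM groups. It was at 1.24, 1.21 and 0.902 CPM in Foxa2+ CM, 2.23, 1.03 and 1.86 in Foxa2- CM, 8.84 and 7.60 in Endoderm, and 14.7 and 6.69 in Flk1+ high cells. It was lower in CM than in Endoderm (-2.56 on the log2 scale, adjusted p = 0.000272 from edgeR) and than in Flk1+ high cells (-2.94, adjusted p = 0.000271 from edgeR, or -2.26 without Flk1+ high replicate 1). Of the 50-base windows in their transcripts, 20.2% of those in Myh6 and 20.0% of those in Myh7 occur in another gene, with 1381 windows common to both, and antisense genes, among them Mhrt, overlap Myh7. Counts of these genes are uncertain where their sequence is shared.

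Myom2, an M-band protein of fast muscle fibres, and Nebl, the gene of the Z-disc protein nebulette, were members with high values in Endoderm alone. Counts per gene do not tell apart transcripts from the several RefSeq start sites of Nebl. Myom2 had 45 and 68 counts in Endoderm (4.19 and 5.68 CPM), 6, 14 and 2 in Foxa2+ CM, 0, 1 and 5 in Foxa2- CM, and 2 in each Flk1+ high sample. Nebl was at 8.56 and 26.8 CPM in Endoderm, 0.803, 0.867 and 0.958 in Foxa2+ CM, 0.742, 0.793 and 2.03 in Foxa2- CM, and 0.752 and 0.315 in Flk1+ high cells. For both genes, both Endoderm samples were above the 8 samples of the other groups. Against CM the log2 fold changes, CM minus Endoderm, were -4.30 (95% interval -5.53 to -3.07, adjusted p = 0.00028 from edgeR) for Myom2 and -4.09 (95% interval -5.08 to -3.10, adjusted p = 0.000105 from edgeR) for Nebl. Against Flk1+ high cells they were, Endoderm minus Flk1+ high, 5.06 (adjusted p = 0.00195) and 4.99 (adjusted p = 0.000745), all from edgeR. The size for Nebl depended on Endoderm replicate 2, and without it the values were -3.02 and 3.95. Without Foxa2- CM replicate 3 the value for Myom2 against CM was -5.13. The skeletal myogenic factors, summed, reached 1.21 and 1.59 CPM in these Endoderm samples.

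Against Flk1+ high cells, cardiac mesoderm held more Ryr2 and Casq2, of the calcium store, and less Myh6, Myh7 and Mybpc3. Atp2a2, the store's pump, did not pass the test (log2 fold change -0.11, interval -0.29 to 0.07). Of 31 members tested, 6 (19.4%) were higher in CM and 8 (25.8%) were lower, against 12% and 13.7% of all genes tested (edgeR). Higher were Ryr2, Casq2, Cnn1, Tnni3, Tpm1 and Tpm2, with log2 fold changes from 3.19 to 0.43. Lower were Myh7, Mybpc3, Myh6, Myl3, Unc45b, Des, Actc1 and Ttn, from -5.59 to -0.98. The call of Tpm2 was lost in 7 of 10 fits with a sample left out, kept only without either Endoderm sample or Flk1+ high replicate 1 (adjusted p = 0.0542 to 0.27 where lost, edgeR). Actc1 again averages CM groups that differ, and its Foxa2- CM samples overlapped with Flk1+ high cells. The median log2 fold change was -0.11 over the members and -0.02 over all genes tested.

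Mybpc3, myosin-binding protein C of the heart, was seen almost only in Flk1+ high cells. It had 35 and 33 counts there (2.19 and 2.60 CPM), 2, 1 and 1 in Foxa2+ CM, 0, 0 and 2 in Foxa2- CM, and 1 and 0 in Endoderm. CM was below Flk1+ high cells by a log2 fold change of -5.13 (95% interval -6.29 to -3.98, adjusted p = 0.000199 from edgeR), or -6.41 without Foxa2- CM replicate 3. For Endoderm, with a single count, the ratio of pooled levels, Flk1+ high to Endoderm, was 53.9 (95% interval 9.35 to 2159 for counting error, exact binomial), and edgeR called it with an adjusted p of 0.00112.

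Ryr2 was at 0.752 and 2.36 CPM in Flk1+ high cells and 2.05 and 3.59 in Endoderm, below all 6 CM samples. The log2 fold change was 3.19 against Flk1+ high cells (95% interval 1.59 to 4.78, adjusted p = 0.00986 from edgeR) and 2.29 against Endoderm (95% interval 0.81 to 3.77, adjusted p = 0.0224 from edgeR). Leaving out 1 sample could end each call, with an adjusted p of 0.0619 without Flk1+ high replicate 1 (log2 fold change 2.55), and of 0.167 or 0.0786 without Endoderm replicate 1 or 2 (edgeR). Without Flk1+ high replicate 2 the value was 4.23. Casq2, the calcium buffer of the store, was at 1.43 to 2.82 CPM in CM, 1.68 and 3.59 in Endoderm, and 0.439 and 0.472 in Flk1+ high cells, and it was called against Flk1+ high cells in every fit (log2 fold change 2.18, adjusted p = 0.00319 from edgeR). Pln, the SERCA inhibitor phospholamban, never exceeded 7 counts, and 59.6% of its exonic bases lie under the opposite-strand gene Gm47644.

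Myl3, the ventricular essential light chain, had 0, 2 and 1 counts in Foxa2+ CM, 1, 0 and 5 in Foxa2- CM, 5 and 16 in Endoderm, and 6 and 14 in Flk1+ high cells. Its log2 fold changes of -3.25 against Endoderm (adjusted p = 0.0115) and -2.90 against Flk1+ high cells (adjusted p = 0.028), both from edgeR, rest on these few counts. Without Endoderm replicate 2 the first was -2.27 (adjusted p = 0.208, edgeR), and without Flk1+ high replicate 2 the second was -1.96 (adjusted p = 0.272, edgeR). The second was also lost without Foxa2+ CM replicate 1 or 3 or Foxa2- CM replicate 1 (adjusted p = 0.0531 to 0.0617, edgeR). Without Foxa2- CM replicate 3, with the 5 counts, they were -4.07 and -3.72.

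Des and Unc45b, a myosin chaperone, differed widely between the Flk1+ high samples. Des was at 42.5 and 13.4 CPM in Flk1+ high cells, 4.82 to 12.7 in CM, and 6.33 and 3.51 in Endoderm. Unc45b was at 12.7 and 1.89 CPM in Flk1+ high cells, 1.63 to 3.59 in CM, and 1.68 and 1.67 in Endoderm. Replicate 1 was far above replicate 2 in both. Without Flk1+ high replicate 1 the log2 fold change, CM minus Flk1+ high, went from -1.66 to -0.59 for Des (adjusted p = 0.35, edgeR) and from -1.70 to 0.25 for Unc45b (adjusted p = 0.668, edgeR). Unc45b kept its call only without Flk1+ high replicate 2 (-2.47), among the 10 fits with a sample left out. Without Flk1+ high replicate 1, Actc1 also moved to -0.81 from -1.41, Tpm1 to 0.36 and Ryr2 to 2.55, and Actc1, Tpm1 and Ryr2 lost their calls. Cnn1 rose to 2.17 from 1.29. The antisense gene Gm15179 covers 5.86% of the exonic bases of Des, and Unc45bos covers 5.68% of those of Unc45b.

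Endoderm and Flk1+ high cells, neither of them cardiac mesoderm, differed from each other in 15 members. Of 31 tested, 6 (19.4%) were higher in Endoderm (Myom2, Nebl, Casq2, Cnn1, Tagln and Tnni3) and 9 (29.0%) were lower (Mybpc3, Tnnt2, Tnni1, Myl4, Smyd1, Des, Unc45b, Ttn and Myl7), against 16.4% and 16.2% of all genes tested (edgeR). The median log2 fold change was 0.24 over the members and -0.0042 over all genes tested. Mybpc3 passed the filter through Flk1+ high cells and Myom2 through Endoderm, where each was high, so these shares too are partly set by the filter. Tnnt2 was lower in Endoderm by a log2 fold change of -4.50 (95% interval -6.30 to -2.70, adjusted p = 0.00234 from edgeR), which ran from -9.25 without Endoderm replicate 2 to -3.51 without Flk1+ high replicate 2. Tnni1 stood at 2.13 and 3.46 CPM in Flk1+ high cells, and its ratio of pooled levels to Endoderm, with 3 counts there, was 20.6 (95% interval 6.79 to 102 for counting error, exact binomial), called by edgeR with an adjusted p of 0.000398. Several of these calls hung on single samples. Unc45b (log2 fold change -2.13, and -0.18 without Flk1+ high replicate 1) was lost in 8 of 10 fits with a sample left out, kept only without Foxa2- CM replicate 3 or Flk1+ high replicate 2. Smyd1 was lost without either Endoderm sample, Flk1+ high replicate 2 or replicate 2 of either CM group (adjusted p = 0.0528 to 0.191, edgeR), and Myl7 without Endoderm replicate 1, Flk1+ high replicate 1 or Foxa2+ CM replicate 2 (adjusted p = 0.0524 to 0.168, edgeR). Des was lost without Endoderm replicate 2 or Flk1+ high replicate 1 (adjusted p = 0.0844 and 0.0575, edgeR), and Tagln without Endoderm replicate 1 or Flk1+ high replicate 2 (adjusted p = 0.147 and 0.124, edgeR).

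**Figure D4:**
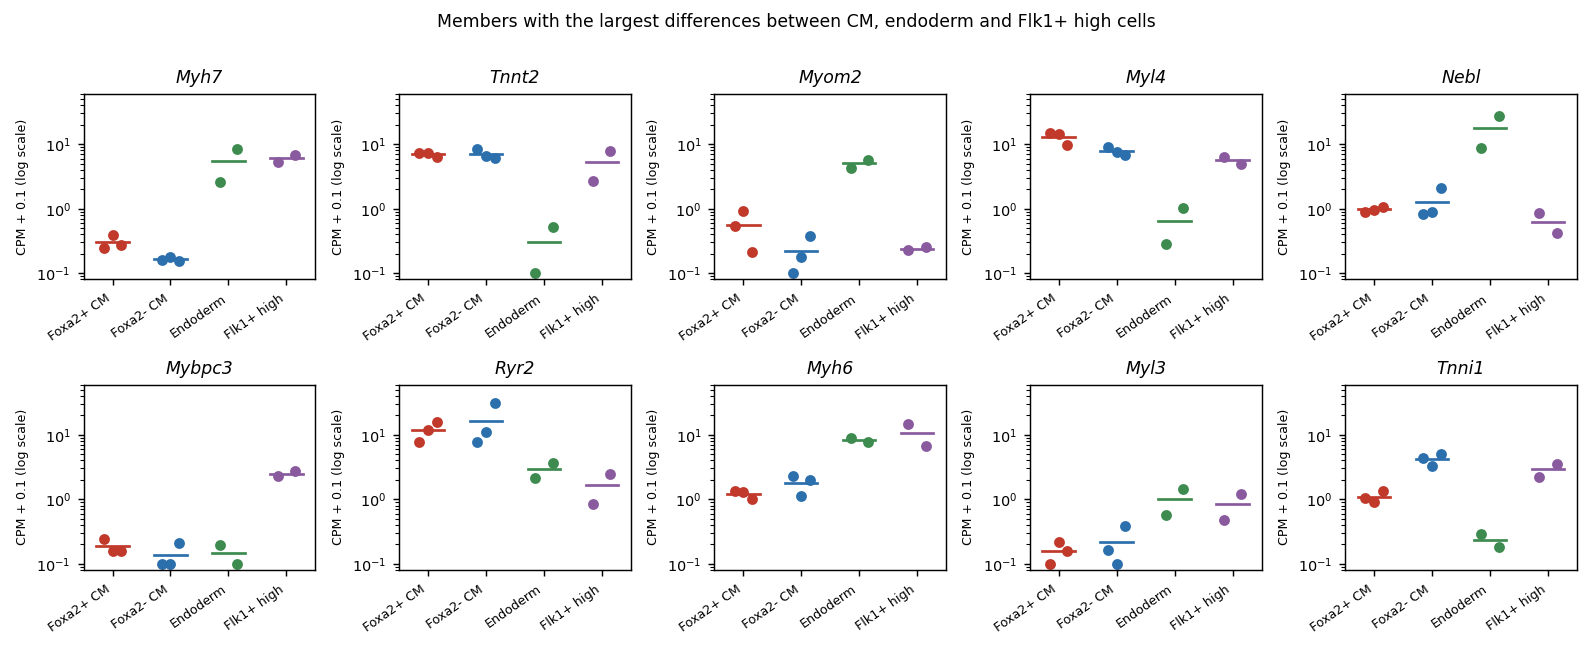
CPM plus 0.1 (vertical axis, log scale) of the 10 members among the 5 largest differences called in any comparison of CM, Endoderm and Flk1+ high cells, with a point per sample and a line at the group mean (n = 3, 3, 2 and 2). Myom2 and Nebl stand high in Endoderm, Mybpc3 in Flk1+ high cells, Myh6 and Myh7 in both, and Tnnt2 and Tnni1 are lowest in Endoderm.

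The remaining members were low or alike across the groups. Ldb3, a Z-disc PDZ protein, was at 0.584 to 2.05 CPM, Cryab, a small heat shock protein that protects desmin, at 0.186 to 1.01 CPM, and Tnnc1 at 0.902 to 2.29 CPM, and none of these was called in any comparison. Cryab shares 17.0% of its exonic bases with Hspb2 on the opposite strand. Tcap, the titin cap, had 3 to 9 counts in each sample, and Myh11, the heavy chain of smooth muscle, 3 to 13. Myom1 was at 1.75 to 4.51 CPM and was also never called.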

How the data were processed

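RNA of 10 sorted samples was prepared by the authors with a library kit that does not mark strand, sequenced as 50 nt single-end reads, aligned to mm10 with STAR 2.5.0a, stripped of duplicates with Picard and counted per gene with HTSeq 0.6.0. The authors deposited these raw counts, as whole numbers for each gene. The strand setting of the counting is not given in the sources used here. Rows of the counter's own tallies stayed out of library sizes, and 72.2% to 80.5% of uniquely aligned reads lay on genes.

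Counts were normalized by TMM and tested with edgeR 4.0.16 in R 4.3.3 (default expression filter, quasi-likelihood test, Benjamini-Hochberg adjustment, threshold 0.05). The standard error is the fold change over the root of the F statistic, and 95% intervals use its degrees of freedom. Fitted fold changes of genes near 0 counts depend on edgeR's prior count. Symbols, exons and lengths came from GENCODE M21 (37607 identifiers matched), promoters from RefSeq GRCm38.p6.

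The members and gene lists were chosen with earlier results of these data known. Values in every sample are given for members called between the CM groups, the 5 largest called in each other comparison, the 3 highest per length in each group, Tnnt2, Myl2 and the paralogous heavy chains and actins. Other genes are counted by list and named where called between the CM groups, with Srf and Myocd. Des, Unc45b, Casq2, Smyd1 and Myl7 were described beyond this rule after their values were seen. Alternatives were DESeq2 1.42.0, RLE size factors, other filters, a limit of 2-fold, a replicate block, all samples in 1 model and leaving out samples. Figures were drawn with matplotlib 3.10.9.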

Additional observations from a re-analysis of the deposited data

How the results depend on the processing

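Members called between the CM groups numbered 6, with 990 of all genes tested called (all-gene counts in brackets below). They numbered 3 (460) with a limit of 2-fold, 7 (1323) with DESeq2 and 6 with RLE size factors (962) or a stricter filter (1008). They numbered 8 (1210) without a filter and 4 (288) with all samples in 1 model, without Actn2 and Cnn1. With a sample left out they numbered 3 to 8 (234 to 1701). With both CM samples numbered 3 left out, a choice made after seeing the data, 10 (2632) were called. Against Endoderm, CM gave 16 (11 to 19 with a sample left out), against Flk1+ high cells 14 (9 to 14), and Endoderm against Flk1+ high cells gave 15 (11 to 15). DESeq2 gave 17, 15 and 17 in these comparisons. In CM against Endoderm it called 6171 of all 16180 genes tested, and the main test 6022. Where a count of members stands without that of all genes, it is not read as a result about the members. Called in every alternative, the limit of 2-fold set aside, were 3 of 6, 9 of 16, 7 of 14 and 10 of 15 members. Of those 7, against Flk1+ high cells, Ttn (1.98-fold) and Tnni3 (1.94-fold) missed the limit of 2-fold. Same-numbered CM samples correlated at 0.534, 0.0961 and 0.628 in their deviations, and differently numbered ones at -0.61 to 0.363. The labels do not say whether the numbers pair the samples, and these correlations do not settle it. The main test did not pair them. With a replicate block the counts of members were 9, 17, 13 and 16. Those of all genes were 2556 in place of 990 between the CM groups and 5654 in place of 6022 in CM against Endoderm. Unc45b lost both of its calls against Flk1+ high cells. Directions held except for Unc45b in CM against Flk1+ high cells (log2 fold change -2.47 to 0.25 with a sample left out, positive without Flk1+ high replicate 1) and Tnnt2 between the CM groups (-0.13 to 0.11), which was never called. The cause was not tested. A detection minimum of 10 counts in place of 3 left 24, 25, 23 and 25 members in Foxa2+ CM, Foxa2- CM, Endoderm and Flk1+ high cells. For members with few counts, such as Myl2, Pln and Mybpc3 in CM, depth limits what a fold change can show.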
